A study of Mus musculus with 6 samples.

Results

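Gpr83, Folr4, Nrp1, Swap70, Capg and Plagl1 are genes by which regulatory T cells (Tregs) are commonly told from conventional CD4 T cells. They were described in Tregs sorted from tumors grown in mice from injected T11 cells, which are mouse breast cancer cells of the claudin-low, triple-negative kind. The 6 genes are 6 of the 23420 genes in the deposited count table. They were selected by symbol with the fold changes of the anti-PD-1 comparison already known, so the values of that comparison are given as a description and are not support for anything. Folr4 is the older symbol of Izumo1r, and the table lists the gene under Folr4. Gpr83, Folr4 and Nrp1 encode surface receptors, Swap70 and Capg encode regulators of actin, and Plagl1 encodes a zinc finger transcription factor.

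Libraries 4, 5 and 6 came from BALB/c mice carrying a Foxp3-GFP reporter that had received 10000 T11 cells and were then treated with J43, an antibody to PD-1, at 200 µg intraperitoneally, 2 times per week. Libraries 1, 2 and 3 came from mice of the same strain and reporter with the same tumor cells and no treatment. In both groups, tumors were taken at 150 mm2 and cells with GFP were sorted, at over 90% purity, so cells of other kinds could make up the rest of each sort. The labels do not say whether each library came from a separate mouse or from pooled mice, and every p-value rests on the spread among the 6 libraries alone, part of which could be technical. No library of conventional T cells was analysed here, so the table cannot show that the 6 genes were higher in Tregs than in other T cells.

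Tregs restrain other immune cells and depend on the transcription factor Foxp3. Around Foxp3 lies a wider signature of genes that Tregs share across tissues, among them surface receptors that are used to sort or track these cells. Gpr83 encodes a G protein-coupled receptor that is characteristic of Tregs in mice. Folr4 encodes a protein of the folate receptor family that sits on Tregs and is also known, as Juno, for binding the sperm protein Izumo1 on the egg. Nrp1 encodes neuropilin-1, a co-receptor for semaphorins and vascular endothelial growth factor that marks many thymus-derived Tregs in mice. Swap70 encodes a regulator of Rac GTPases and actin, Capg encodes a protein that caps the ends of actin filaments, and Plagl1 is an imprinted gene expressed from the paternal allele.

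Libraries held 4766533 to 5219249 counts after anti-PD-1 and 5470816 to 6686774 counts without treatment. In a multidimensional scaling of all tested genes, untreated library 1 stood at 2.40 on dimension 1 and the other 5 libraries between -0.67 and -0.39, so a fold change that moved without that library is also given without it. Levels are given as CPM, counts relative to a library total that was scaled by TMM. The T cell and Treg markers Cd3e, Cd3d, Cd3g, Cd4 and Foxp3 together took 1905 to 2148 CPM after anti-PD-1 and 1689 to 2080 CPM without treatment. The 11 macrophage and monocyte markers together took 17.1 to 37.3 CPM after anti-PD-1 and 24.8 to 30.7 CPM without treatment, with C1qa at 0 in all libraries. Of the other marker lists, those of NK cells (2.68 to 7.66 CPM after anti-PD-1, 7.69 to 9.11 CPM without treatment) and neutrophils (0 to 0.412 CPM after anti-PD-1, 0.675 to 1.97 CPM without treatment) were lower in every anti-PD-1 library. Of these markers, 1 of 3 for NK cells and 0 of 5 for neutrophils passed the filter on low counts. S100a9, Csf3r and Cxcr2 were at 0 in all libraries, so the neutrophil sums lie near 0. The NK cell groups nearly met, at 7.66 against 7.69 CPM. The summed markers of dendritic, B and CD8 T cells, fibroblasts and epithelium overlapped between the groups. In bulk samples, fewer cells of a type and less RNA per cell cannot be told apart.

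The promoters of 3 of the genes are shown because Gpr83 and Folr4 are neighbours in the genome with fold changes of the same sign, while Swap70 was the member whose groups did not overlap, in the opposite direction. Each window runs from 250 bases before to 50 bases after the transcription start that RefSeq gives on GRCm38.p6, read 5′ to 3′ on the strand of the gene. Gpr83 (plus strand) is at chr9:14859960-14860259, Folr4 (minus strand) at chr9:14903718-14904017 and Swap70 (plus strand) at chr7:110221453-110221752. Capitals mark the match to a motif.
Gpr83: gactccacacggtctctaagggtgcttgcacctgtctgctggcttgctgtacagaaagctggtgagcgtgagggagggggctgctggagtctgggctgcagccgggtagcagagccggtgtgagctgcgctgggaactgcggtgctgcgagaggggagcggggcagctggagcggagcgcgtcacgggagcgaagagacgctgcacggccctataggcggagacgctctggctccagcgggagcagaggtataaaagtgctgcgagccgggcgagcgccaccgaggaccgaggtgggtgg
Folr4: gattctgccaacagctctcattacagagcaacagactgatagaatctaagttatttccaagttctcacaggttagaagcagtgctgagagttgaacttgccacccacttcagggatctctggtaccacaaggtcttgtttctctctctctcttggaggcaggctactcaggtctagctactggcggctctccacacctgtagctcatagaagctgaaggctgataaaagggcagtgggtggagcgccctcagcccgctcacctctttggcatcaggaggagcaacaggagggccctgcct
Swap70: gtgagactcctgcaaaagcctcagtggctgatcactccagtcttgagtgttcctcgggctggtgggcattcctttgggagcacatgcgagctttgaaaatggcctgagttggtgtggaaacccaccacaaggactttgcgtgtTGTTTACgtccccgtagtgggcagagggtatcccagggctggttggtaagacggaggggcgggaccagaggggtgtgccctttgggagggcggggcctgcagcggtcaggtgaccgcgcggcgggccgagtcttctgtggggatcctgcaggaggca

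All 6 genes matched a RefSeq promoter. The forkhead motif GTAAACA was searched on both strands, and among the 6 promoters it was found in that of Swap70, in reverse, starting at base 144 of the window. It was present in 3.65% of 32851 promoter windows of that length. The Runx motif TGTGGTT (5.27% of windows), the AP-1 motif TGANTCA (7.81%) and the cyclic AMP response element TGACGTCA (1.79%) were in none of the 6, and the KLF motif GGGTGTGG (3.56%) was in that of Capg. The Capg window surrounds a RefSeq start that lies 5256 bases from the start of the counted gene model, while for the other 5 genes that distance is 0 to 184 bases. No motif matches overlap in the printed windows, and a match is a match of letters and not a bound site. The neighbours differed in base composition. The Gpr83 window held 24 CpG dinucleotides and 67.0% G and C, and the Folr4 window 3 CpG and 52.3%. The median over all windows was 7 CpG and 52.7%. Swap70 and Nrp1 had 14 CpG each, Capg 7 and Plagl1 26.

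Gpr83 and Folr4 lie next to each other on chromosome 9 of mm10. The gene model of Gpr83 runs from 14860254 to 14869499 on the plus strand in 4 exons, and that of Folr4 from 14885814 to 14903951 on the minus strand in 6 exons. The genes are transcribed towards each other, with 16314 bases between their models and no other gene of the table in the gap. Neither overlaps another gene in GENCODE M21.

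**Figure D1:**
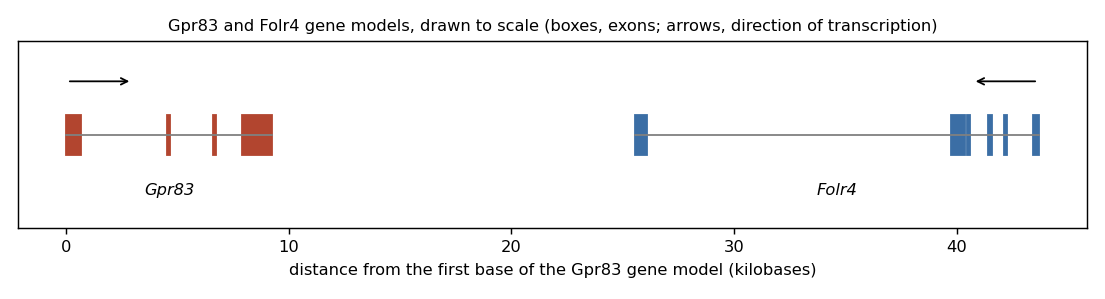
Gene models of Gpr83 and Folr4 as in the count table, with distance in kilobases from the first base of the Gpr83 model. Boxes are exons and arrows give the direction of transcription; the models face each other across a gap of 16314 bases.

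Of the surface receptors, Gpr83 had the highest fold change. It stood at 22.0, 29.0 and 52.1 CPM in libraries 4, 5 and 6 (anti-PD-1), against 14.2, 24.3 and 17.9 CPM in libraries 1, 2 and 3 (untreated). Anti-PD-1 library 6 stood well above all others, and library 4 lay below untreated library 2, so the groups overlapped. Gpr83 averaged 34.4 ± 15.8 CPM after anti-PD-1 and 18.8 ± 5.09 CPM without treatment (SD, n = 3 each). The fitted log2 fold change was 0.87 ± 0.35 (SE; 95% interval 0.15 to 1.59), and it was 0.44 when anti-PD-1 library 6 was left out. Counts of 89 to 253 lay behind these values, and the exact Poisson 95% interval of library 6, which covers counting error only, ran from 45.9 to 59.0 CPM.

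Folr4 stood at 93.6, 127 and 127 CPM in libraries 4, 5 and 6 (anti-PD-1), against 40.2, 84.3 and 103 CPM in libraries 1, 2 and 3 (untreated). Untreated library 1 was the lowest of all 6, and untreated library 3 lay above anti-PD-1 library 4, so the groups overlapped. Folr4 averaged 115.9 ± 19.3 CPM after anti-PD-1 and 76.0 ± 32.4 CPM without treatment (SD, n = 3 each). Its log2 fold change was 0.61 ± 0.25 (SE; 95% interval 0.10 to 1.13), and it was 0.30 without untreated library 1, the library that stood apart in the scaling. The Gpr83 count per Folr4 count needs no library scaling and was 0.23, 0.23 and 0.41 after anti-PD-1, against 0.35, 0.29 and 0.17 without treatment. The neighbours therefore did not keep a fixed ratio, and untreated library 1 and anti-PD-1 library 6 were the libraries where Gpr83 was highest relative to Folr4.

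Nrp1 is the longest of the 6 transcripts, with 5920 bases in 17 exons on chromosome 8 (128359073 to 128505475, plus strand). The table also lists the microRNA gene Mir1903, which overlaps its model on the same strand. Nrp1 stood at 538, 529 and 382 CPM in libraries 4, 5 and 6 (anti-PD-1), against 348, 345 and 383 CPM in libraries 1, 2 and 3 (untreated). Anti-PD-1 libraries 4 and 5 stood above all untreated libraries, and library 6 was level with untreated library 3. Nrp1 averaged 483 ± 87.7 CPM after anti-PD-1 and 359 ± 20.9 CPM without treatment (SD, n = 3 each). Its log2 fold change was 0.43 ± 0.15 (SE; 95% interval 0.11 to 0.75), and it stayed between 0.34 and 0.57 whichever library was left out. Nrp1 is also known from endothelial cells. Of 6 endothelial markers, Cdh5, Kdr, Tie1, Tek and Emcn were at 0 counts in all 6 libraries. The other one, Pecam1, which T cells can also express, stood at 83.6 to 123 CPM after anti-PD-1 and 64.5 to 73.7 CPM without treatment. Its groups did not overlap, beside 7.18% of all genes on the higher side. The part of endothelial cells in the result was not tested.

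Among the intracellular proteins, Swap70 was the member whose groups did not overlap. It stood at 142, 159 and 153 CPM in libraries 4, 5 and 6 (anti-PD-1), against 277, 181 and 199.5 CPM in libraries 1, 2 and 3 (untreated). All anti-PD-1 libraries were below all untreated ones and close to each other, and untreated library 1 was the highest. Swap70 averaged 151 ± 8.39 CPM after anti-PD-1 and 219 ± 50.9 CPM without treatment (SD, n = 3 each). Its log2 fold change was -0.54 ± 0.18 (SE; 95% interval -0.90 to -0.17), and it was -0.33 without untreated library 1. Swap70 is also known from B cells, whose 5 markers together took 4.95 to 19.04 CPM after anti-PD-1 and 3.20 to 10.8 CPM without treatment, and their part in the result was not tested. Swap70 lies on chromosome 7 (110221703 to 110283506, plus strand, 12 exons of 4035 bases). GENCODE M21 places the antisense gene Gm45515 on the other strand within it, and the counts were assigned by strand.

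Capg did not separate the groups. It stood at 184, 224 and 127 CPM in libraries 4, 5 and 6 (anti-PD-1), against 138, 233 and 210.3 CPM in libraries 1, 2 and 3 (untreated). Anti-PD-1 library 6 and untreated library 1 were the lowest, anti-PD-1 library 5 and untreated library 2 the highest, and the groups overlapped. Capg averaged 178 ± 48.3 CPM after anti-PD-1 and 194 ± 49.8 CPM without treatment (SD, n = 3 each). Its log2 fold change was -0.12 ± 0.20 (SE; 95% interval -0.54 to 0.31). That value turned positive without anti-PD-1 library 6 (0.074) or untreated library 2 (0.041), and was -0.31 without anti-PD-1 library 5, -0.32 without untreated library 1 and -0.056 without untreated library 3. Capg (chromosome 6, 72544391 to 72562983, plus strand, 14 exons) is also known from macrophages. The summed macrophage and monocyte markers stood at 37.3, 29.8 and 17.1 CPM in libraries 4, 5 and 6 (anti-PD-1), against 26.3, 30.7 and 24.8 CPM in libraries 1, 2 and 3 (untreated). Anti-PD-1 library 6 was the lowest for both, while the highest was anti-PD-1 library 4 for the markers and untreated library 2 for Capg. The part of these cells in the result was not tested.

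Plagl1 was the least abundant and most variable of the 6. It stood at 12.9, 0.83 and 7.01 CPM in libraries 4, 5 and 6 (anti-PD-1), against 14.4, 6.97 and 4.22 CPM in libraries 1, 2 and 3 (untreated). Anti-PD-1 library 5 held 4 counts, against 25 to 90 in the other libraries. The exact Poisson 95% interval of library 5 ran from 0.23 to 2.12 CPM and that of untreated library 3, the next lowest, from 2.73 to 6.22 CPM. Plagl1 averaged 6.91 ± 6.03 CPM after anti-PD-1 and 8.53 ± 5.27 CPM without treatment (SD, n = 3 each). The log2 fold change was -0.29 ± 0.61 (SE; 95% interval -1.56 to 0.98), and it turned positive without anti-PD-1 library 5 (0.22) or untreated library 1 (0.34). It was -1.14 without anti-PD-1 library 4, -0.62 without untreated library 3 and -0.75 by limma-voom. Plagl1 lies on chromosome 10 (13090788 to 13131695, plus strand, 6 exons), where GENCODE M21 places the short RNA gene Gm27741 on the other strand.

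**Figure D2:**
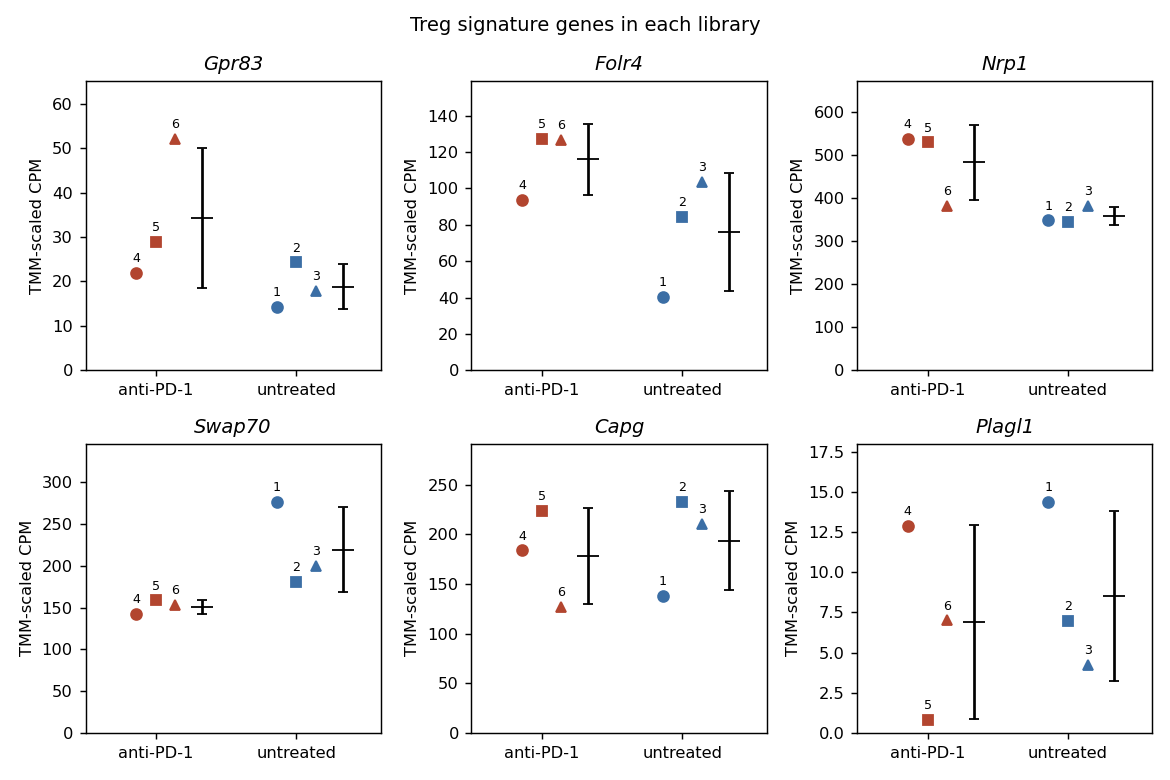
TMM-scaled CPM of each of the 6 genes by library (numbers beside points), anti-PD-1 left and untreated right, with the mean and SD over 3 libraries as the black mark and bar. Swap70 is the panel in which the groups do not overlap, and anti-PD-1 library 5 is near 0 for Plagl1, at 0.83 CPM.

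None of the 6 genes passed the test across all genes at an adjusted p of 0.05 (edgeR quasi-likelihood, Benjamini-Hochberg), where 3 of 10352 tested genes did (0.029%), namely the transcription factor genes Klf2 and Jun and the GTPase gene Rhob, all higher. None passed in DESeq2, which called 34 of 4331 genes with an adjusted p (0.785%) and gave none to 2 of the 6, or in limma-voom, which called 5 genes (0.0483%), those 3 and Arl5a among them. At an unadjusted p under 0.05 in edgeR stood 3 of the 6 with values above 0, namely Gpr83, Folr4 and Nrp1, beside 4.23% of all genes. On the lower side stood 1, Swap70, beside 4.07%. The groups did not overlap in 1 of the 6 on the lower side (6.44% of all genes) and in 0 on the higher side (7.18%). Since the genes were chosen with this comparison known, nothing is read from these counts. All 6 passed the filter on low counts. The median log2 fold change of the 6 was 0.16, and that of all tested genes 0.0016.

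**Figure D3:**
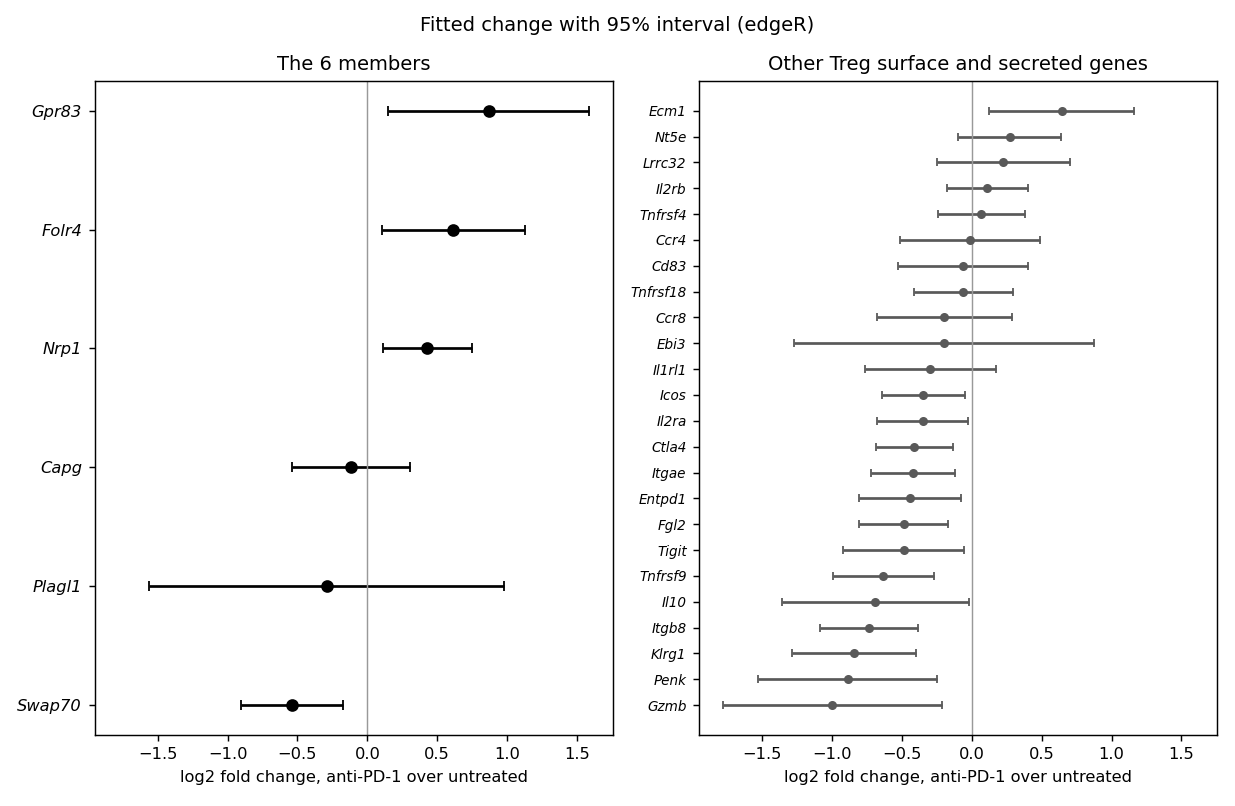
Fitted log2 fold change, anti-PD-1 over untreated, with 95% intervals from edgeR, for the 6 genes (left) and for 24 other Treg surface and secreted genes (right). The intervals of Gpr83, Folr4 and Nrp1 lie above 0 and that of Swap70 below 0; no gene shown passed edgeR's test across all genes.

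Spread between replicates ordered the 6 genes differently. The biological coefficient of variation that edgeR estimated for each gene was 15.2% for Nrp1, 16.7% for Swap70, 19.9% for Capg, 23.7% for Folr4, 30.2% for Gpr83 and 60.2% for Plagl1. Genes of the same abundance had 15.7%, 16.8%, 16.8%, 18.5%, 28.1% and 48.3% on the fitted trend, in the same order of genes. The estimates of Folr4, Capg, Gpr83 and Plagl1 lay above the trend, and those of Nrp1 and Swap70 just below it. edgeR draws the estimate of each gene towards this trend, so closeness to it is partly built in and is not read as a result. For Folr4, untreated library 1 stood apart from untreated libraries 2 and 3, at 40.2 against 84.3 and 103 CPM.

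Per kilobase of exon, Capg had the highest mean in both groups and Plagl1 the lowest. In anti-PD-1 libraries the mean levels were 93.0 ± 25.2 CPM per kilobase for Capg, 81.6 ± 14.8 for Nrp1, 63.0 ± 10.5 for Folr4, 37.4 ± 2.08 for Swap70, 15.3 ± 7.01 for Gpr83 and 1.31 ± 1.15 for Plagl1 (SD, n = 3). In untreated libraries they were 101.0 ± 26.0 for Capg, 60.6 ± 3.52 for Nrp1, 54.3 ± 12.6 for Swap70, 41.3 ± 17.6 for Folr4, 8.35 ± 2.26 for Gpr83 and 1.62 ± 1.00 for Plagl1 (SD, n = 3). Capg and Nrp1, and Nrp1 and Folr4, overlapped in range in anti-PD-1 libraries, where Folr4 and Swap70 did not. Nrp1, Swap70 and Folr4 overlapped as neighbours in untreated libraries, where Capg and Nrp1 did not. Swap70 stood above Nrp1 and Folr4 in untreated library 1 and below both in each of the other 5 libraries. Gpr83 and Plagl1 held the last places in all 6.

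**Figure D4:**
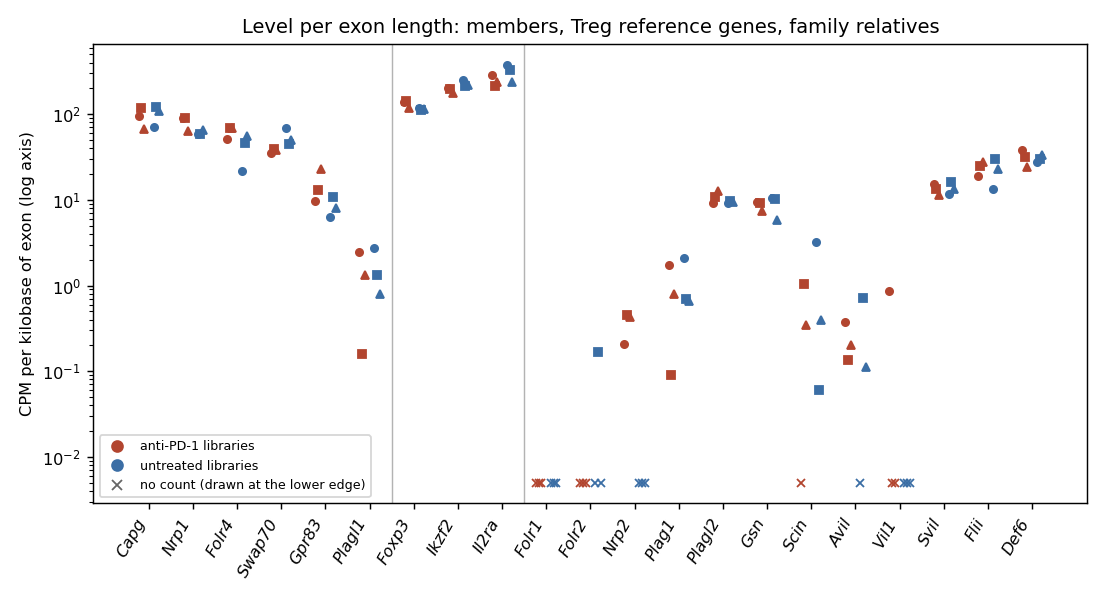
CPM per kilobase of exon on a log axis for the 6 genes, for Foxp3, Ikzf2 and Il2ra, and for family relatives of the genes other than Gpr83. Each point is a library (circle, square and triangle for libraries 4, 5 and 6 after anti-PD-1 and 1, 2 and 3 without treatment). Crosses mark libraries with no count, which include all untreated libraries for Nrp2.

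The same counts were also set against those of Foxp3, by whose reporter the cells were sorted, as a description and not a separate result. Per 100 Foxp3 counts there were 26.2, 28.2 and 33.1 Swap70 counts in anti-PD-1 libraries 4, 5 and 6, against 60.2, 41.3 and 44.1 in untreated libraries 1, 2 and 3. Those ranges did not overlap. Nrp1 gave 92.0 ± 8.36 counts per 100 Foxp3 counts after anti-PD-1 and 79.7 ± 4.45 without treatment (SD, n = 3 each), and the groups overlapped. On the log2 scale the ratio of group means was 0.21 for Nrp1, 0.41 for Folr4, 0.70 for Gpr83, -0.73 for Swap70, -0.36 for Capg and -0.49 for Plagl1. Foxp3 itself stood at 543, 562 and 461 CPM in anti-PD-1 libraries, against 460, 437 and 453 CPM in untreated libraries. Its log2 fold change was 0.21 ± 0.14 (SE), and it did not pass edgeR's test. The groups of Foxp3 did not overlap, by 461 against 460 CPM, beside 7.18% of all genes on the higher side. A higher Foxp3 count lowers each ratio to Foxp3 after anti-PD-1. Ikzf2, which encodes Helios, the other common marker of thymus-derived Tregs beside Nrp1, stood at 1918, 1863 and 1681 CPM in anti-PD-1 libraries, against 2359.6, 1999.9 and 2072 CPM in untreated libraries. The groups of Ikzf2 did not overlap, by 1918 against 1999.9 CPM, beside 6.44% of all genes on the lower side. The log2 fold change of Ikzf2 was -0.24 ± 0.13 (SE), that of Nrp1 0.43 ± 0.15, and Ikzf2 did not pass edgeR's test.

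**Figure D5:**
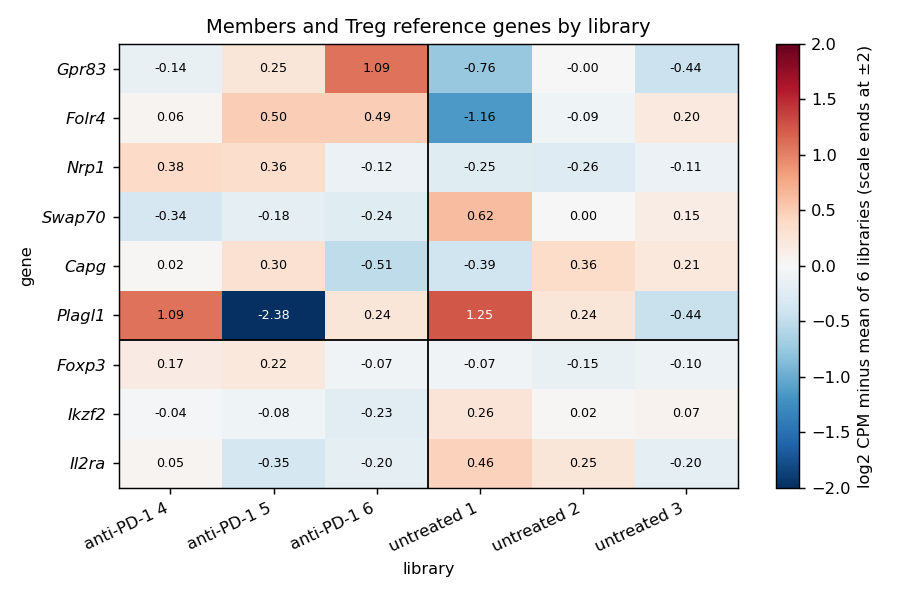
Log2 CPM of the 6 genes and of Foxp3, Ikzf2 and Il2ra in each library, minus the gene's mean over the 6 libraries, with the value printed in each cell. Untreated library 1 is the lowest for Folr4 (-1.16) and the highest for Swap70 (0.62), and anti-PD-1 library 5 the lowest for Plagl1 (-2.38, beyond the end of the colour scale).

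The listed family relatives of the genes other than Gpr83 were mostly low, with 6 of 12 passing the filter. No relative of Gpr83 was listed. Folr1 had 0 counts in all libraries and Folr2 had 1, so Folr4 was the member of its family that these libraries held. Def6, the close relative of Swap70, stood at 71.1 ± 15.7 CPM after anti-PD-1 and 69.3 ± 6.84 CPM without treatment (SD, n = 3 each; log2 fold change 0.043 ± 0.21, SE), beside -0.54 for Swap70. Among proteins of the gelsolin family to which Capg belongs, Gsn (-0.019), Svil (-0.046) and Flii (0.10) had log2 fold changes near 0. Scin had 0 to 60 counts per library, Avil 0 to 12, and Vil1 14 in anti-PD-1 library 4 and 0 elsewhere. None of the 6 tested relatives passed in edgeR (0 also unadjusted at 0.05), DESeq2 or limma-voom.

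Nrp2, the gene of neuropilin-2, was seen after anti-PD-1 only. It had 9, 18 and 17 counts in anti-PD-1 libraries 4, 5 and 6, against 0, 0 and 0 in untreated libraries 1, 2 and 3. Over the group that is 2.94 CPM after anti-PD-1, or 17.4 times the 0.169 CPM that 3 counts over the 3 untreated libraries would give. That limit allows for counting error in the untreated libraries only. It leaves out the spread between libraries, so 17.4 is not a lower bound on the fold. Nrp2 did not pass the count filter. In fits that kept it, edgeR's adjusted p was 0.288 with no filter and 0.419 with a filter of 1 CPM in 3 libraries, so the difference did not pass. Over the 6 fits that held Nrp2 it ran from 0.288 to 0.657. Among all 23420 genes, 2 had 0 counts in the untreated libraries and at least 9 in each anti-PD-1 library, Nrp2 and Gdpd1, and 0 genes had the reverse. The cut of 9 is the lowest count of Nrp2 itself after anti-PD-1, so nothing is read from these numbers. Nrp1 had 165 counts for each Nrp2 count after anti-PD-1, and the longest stretch of identical bases between their GENCODE transcripts was 16. Nrp2 lies on chromosome 1 (62703317 to 62818692).

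Plag1, the closest relative of Plagl1, followed it from library to library. It had 42, 2 and 18 counts in anti-PD-1 libraries 4, 5 and 6, against 61, 18 and 18 in untreated libraries 1, 2 and 3, beside 68, 4 and 34, against 90, 39 and 25, for Plagl1. Both were highest in untreated library 1 and lowest in anti-PD-1 library 5. Measured by the root mean square difference of centred log2 CPM over the 6 libraries (0.20), 0 of the other 10351 tested genes came nearer to Plagl1 than Plag1. Plagl2, the third gene of the family, was at 1.27, with 5270 genes nearer. The longest stretch of identical bases between Plagl1 and Plag1 transcripts was 15. This comparison was made after the values were seen, and Plag1 held 159 counts in all. Of 12 imprinted genes of the network around Plagl1, Mest, Igf2r and Gnas passed the filter, with log2 fold changes of 0.32 ± 0.68, -0.21 ± 0.17 and -0.15 ± 0.14 (SE). None passed in edgeR (0 also unadjusted at 0.05), DESeq2 or limma-voom, their median was -0.15, and Peg3, Ndn and Sgce were at 0 counts in all libraries.

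The rest of the Treg surface signature was listed beside the 6 genes. Of 24 other surface and secreted genes, all tested, 19 had log2 fold changes below 0 and 5 above, with a median of -0.35, against 0.0016 over all genes. None passed in edgeR. At an unadjusted p under 0.05 stood 13 on the lower side (4.07% of all genes) and 1 on the higher side (4.23%), and limma-voom called 0. DESeq2 called 2, both lower, the integrin gene Itgb8 (-0.74 ± 0.17, SE, in edgeR) and the lectin receptor gene Klrg1 (-0.84 ± 0.21). The lowest values were those of the protease gene Gzmb (-0.998 ± 0.343, SE), which NK cells also express, and of Penk, the precursor of enkephalin (-0.89 ± 0.31). The highest were those of the matrix protein gene Ecm1 (0.64 ± 0.25) and of Nt5e, which encodes the adenosine-producing enzyme CD73 (0.27 ± 0.18). Il2ra, which encodes the alpha chain of the high-affinity IL-2 receptor, stood at -0.35 ± 0.16. Gpr83, Folr4 and Nrp1, at 0.87, 0.61 and 0.43, thus had values of the opposite sign to the median of this list, and Swap70 (-0.54) the same sign. That list was drawn up with earlier results on many of its genes known, so its median is a description too.

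Of 18 other signature genes of the cell interior, all tested, 10 lay below 0 and 8 above, with a median log2 fold change of -0.13. None passed in edgeR, DESeq2 or limma-voom. Unadjusted in edgeR at 0.05, 3 stood on the lower side, Prdm1 and Dusp4 among them, and 1 on the higher side (Traf1). The lowest was the AP-1 family factor Batf (-0.57 ± 0.29, SE). The highest were the cytokine signalling inhibitor Socs1 (0.47 ± 0.30) and the signalling adaptor Traf1 (0.40 ± 0.17). The median turned positive without anti-PD-1 library 6 (0.034) or untreated library 2 (0.037), and leaving out anti-PD-1 library 4 gave -0.28, leaving out anti-PD-1 library 5 gave -0.049 and leaving out untreated library 3 gave -0.062.

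Genes known to be lower in Tregs than in conventional CD4 T cells gave 6 of 8 tested values above 0, with a median of 0.20. None passed in edgeR, DESeq2 or limma-voom, and unadjusted in edgeR at 0.05 stood Pde3b, on the lower side. Tcf7, a transcription factor of resting T cells, had a log2 fold change of 1.97 ± 0.87 (SE) and Igfbp4 of 1.71 ± 0.87. Pde3b, a phosphodiesterase, stood at -1.59 ± 0.64 and Cd40lg, the CD40 ligand, at -0.66 ± 0.41. Counts were low for Igfbp4, at 2 to 36 per library, and for Pde3b, at 8 to 55. DESeq2 gave no adjusted p to Igfbp4, Pde3b or Cd40lg. The groups of Tcf7 and Igfbp4 overlapped, and those of Pde3b and Cd40lg did not, beside 6.44% of all genes on the lower side. The median was -0.023 without anti-PD-1 library 4, 0.38 without anti-PD-1 library 5, 0.46 without untreated library 1 and 0.0072 without untreated library 3.

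Of the 14 co-receptors, ligands and signalling partners listed for Nrp1, 9 were tested. The TGF-beta receptor gene Tgfbr1 had the lowest log2 fold change (-0.33 ± 0.16, SE). The highest were those of the plexin Plxna3 (0.81 ± 0.95) and of Sema4a (0.80 ± 0.79), a semaphorin ligand of Nrp1, both below 5 CPM on average in each group. None of the 9 passed in edgeR (1 unadjusted at 0.05, Tgfbr1), DESeq2 or limma-voom. Their median was 0.18, and 0.0035 without anti-PD-1 library 6, 0.060 without untreated library 2 and 0.34 without untreated library 3. Kdr, the vascular endothelial growth factor receptor that pairs with Nrp1 on vessels, was at 0 in all libraries.

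Actin and small GTPase genes around Swap70 and Capg lay close to 0. Of 14 tested, 7 lay above and 7 below, with a median log2 fold change of 0.015, which ran from -0.040 without untreated library 1 to 0.052 without untreated library 3 and was -0.012 without anti-PD-1 library 6. The lowest were the subunits of the actin capping protein, Capza1 (-0.26 ± 0.15, SE) and Capzb (-0.23 ± 0.17), and the highest the actin-binding profilin gene Pfn1 (0.37 ± 0.17) and the GTPase gene Rac2 (0.20 ± 0.14). None passed in edgeR (1 unadjusted at 0.05, Pfn1), DESeq2 or limma-voom. Rac1, the GTPase that Swap70 acts on, stood at 277 ± 25.8 CPM after anti-PD-1 and 282 ± 18.1 CPM without treatment (SD, n = 3 each).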

How the data were processed

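Per the file headers, the authors counted fragments per gene in strand setting 1 with featureCounts 1.5.2, using the mm10 annotation of UCSC, and deposited these raw counts. Other tools in the submitters' processing notes are bcl2fastq, FastQC and DESeq2. Alignment settings: not given in the sources used here. An unnamed column with 6 values was not used. The deposited exon length in bases served to express levels per kilobase.

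Libraries were scaled by TMM over the 10352 genes that passed filterByExpr (a count of 10, and 15 in total). The edgeR 4.0.16 quasi-likelihood fit in R 4.3.3 (robust, without the legacy setting) had treatment as its only term, and p-values were two-sided and Benjamini-Hochberg adjusted over all tested genes. DESeq2 1.42.0 and limma-voom (limma 3.58.1) were alternatives, beside other scalings and filters and leaving out each library in turn. A chi-square statistic of the counts of each pair of libraries was 9.71 to 30.8 per degree of freedom, so no pair agreed within counting noise and none was merged.

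The 6 genes, the 7 gene lists and the 10 marker lists were chosen with earlier results of these data known. Besides the 6, the rule names all listed family relatives, the 2 highest and 2 lowest genes of each other list, and Foxp3, Ikzf2 and Il2ra. It also names the 2 genes of at least 5 CPM with the nearest library profile. Log2 CPM for profiles used a prior count of 2. Genes named beyond it (Klf2, Jun, Rhob, Arl5a, Itgb8, Klrg1, Prdm1, Dusp4, Gdpd1, Rac1, Mir1903, Pecam1, Kdr, Peg3, Ndn, Sgce, the markers at 0 and overlapping annotations) were chosen after their values were seen. Not every gene under this rule is reported here. Emr1 is the table's symbol for the macrophage marker Adgre1.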

Additional observations from a re-analysis of the deposited data

How the results depend on the processing

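No paired analysis was possible because the replicate numbers of the groups (4, 5 and 6 after anti-PD-1, 1, 2 and 3 untreated) do not overlap. The number of genes called was 3, and 34 with DESeq2, 5 with limma-voom, 7 with library totals in place of TMM, 52 with no filter, and 1 to 19 with a library left out (1 without anti-PD-1 library 5, 5 without anti-PD-1 library 6 or untreated library 3, 6 without untreated library 2 and 19 without untreated library 1). None of these fits called any of the 6 genes, nor did the earlier edgeR method, which was added after seeing the data. Over the fits that leave out 1 library, the median log2 fold change ran from -0.42 to -0.29 for other surface genes, from -0.28 to 0.037 for intracellular genes, from -0.023 to 0.46 for genes low in Tregs and from -0.24 (without anti-PD-1 library 6) to 0.22 (without untreated library 1) for imprinted genes. The imprinted median was 0.17 with no filter and 0.080 with a filter of 1 CPM in 3 libraries, where 9 and 4 of the 12 genes were tested in place of 3. Of 212 alternative values, 193 stayed within the replicate spread or within 1.5 times the count. That spread is wide, at 0.52 for Gpr83, 0.41 for Capg and 1.41 for Plagl1. The 193 therefore include the fall of Gpr83 to 0.44 and the changes of sign of Capg and Plagl1, and are no measure of stability. Counting error limits Plagl1, Plag1, Nrp2, Igfbp4 and Pde3b, whose libraries held 0 to 90 counts.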

Other observations

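The ratio of Nrp1 to Swap70 counts within a library needs no scaling. It was 3.79, 3.34 and 2.50 in anti-PD-1 libraries 4, 5 and 6, against 1.26, 1.91 and 1.92 in untreated libraries 1, 2 and 3. All 3 anti-PD-1 libraries lay above all 3 untreated libraries. The ratios of Folr4 and of Gpr83 to Swap70 separated the groups in the same direction, while those of Gpr83 and of Nrp1 to Folr4 overlapped. Swap70 alone already separated the groups in CPM, so the separation is not particular to Nrp1 and restates the Swap70 values. These ratios were picked after the values were seen, so they are a description with no test.

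For each of the 6 genes, the tested genes of at least 5 CPM with the nearest profile over the 6 libraries were found by the root mean square difference of centred log2 CPM, among 8701 genes. Atp6ap2 (0.064) was among the nearest to Swap70, and Casc3 (0.059) and Pik3c3 (0.072) were nearest to Nrp1. Zfand2a (0.093) and Obfc1 (0.13) were nearest to Folr4, Arfgap3 (0.0997) and Phactr2 (0.10) to Capg, Inadl (0.16) and Dom3z (0.19) to Gpr83, and Rnf24 (0.31) and Mreg (0.42) to Plagl1. Within 0.3 lay 1785 genes for Nrp1, 1745 for Swap70, 754 for Capg, 226 for Folr4, 29 for Gpr83 and 0 for Plagl1. Plag1, at 0.20 from Plagl1, was not among the genes of at least 5 CPM. The SD of log2 CPM within groups was 0.21 for Nrp1, 0.23 for Swap70, 0.52 for Gpr83 and 1.41 for Plagl1. A fixed distance holds fewer genes where a gene varies more, so these counts are not read as distinct profiles. Among the 6 themselves, the nearest pair was Nrp1 and Capg (0.37), followed by Gpr83 and Folr4 (0.41), and Folr4 and Plagl1 were farthest apart (1.62).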
